A study of Mus musculus with 42 samples.

Results

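The genes described here encode 10 RNA-binding regulators of germ cells: *Dazl*, *Boll*, *Meioc*, *Ythdc2*, *Rbm46*, *Ybx1*, *Ybx2*, *Ybx3*, *Elavl2* and *Cpeb1*. They were chosen by name for their known roles in germ cells, with the Y-box paralogs, and all 10 were found among the 27179 genes of the count table. The choice was made with earlier results of these data known. Counts of the 10 set beside shares of all genes below therefore describe this list and are no independent test of it. RNA-seq was performed on Thy1+ and c-Kit+ spermatogonia of mice with a germline deletion of *Chd8*, the gene of a chromatin remodeler, and of their controls, to ask which transcripts depend on CHD8. Each of the 4 groups held 3 libraries. Controls were *Ddx4-Cre*; *Chd8* +/F males and mutants (CKO) were *Ddx4-Cre*; *Chd8* F/- males, all C57BL/6J and all 10 days old (10 dpp). Both genotypes thus carried the Cre transgene and a floxed allele, which loses exons 11 to 13 where the germ cell promoter *Ddx4* drives Cre, so that controls keep 1 intact allele and are not wild type, while the other allele of the mutants is null. The populations were enriched with magnetic beads, c-Kit+ cells first and Thy1+ cells from what the first column let through. The methods speak of 3 pups for each analysis and do not state how many animals went into a library, so p-values measure the spread between these libraries.

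Entry into meiosis depends on RNA-binding proteins as well as on transcription. The helicase YTHDC2, its partner MEIOC and RBM46 form a complex that binds transcripts of the mitotic programme and lowers their abundance, and DAZL and CPEB1 bind elements near the ends of mRNAs and control their translation. Y-box proteins package mRNAs into stored particles, and ELAVL proteins bind AU-rich elements.

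In c-Kit+ spermatogonia, 6 of these 10 genes fell in CKO libraries, where 7.41% of all genes tested fell. None of the 10 passed both thresholds upward, where 14.8% of all did. *Meioc* fell 8.22-fold and *Ybx2* 3.19-fold, followed by *Cpeb1* (2.42-fold), *Elavl2* (2.05-fold), *Ythdc2* (1.84-fold) and *Boll* (1.66-fold). *Dazl* and *Rbm46* were lower by less than the minimum change, *Ybx3* was higher by less than that minimum, and *Ybx1* was nearly level. In Thy1+ spermatogonia the same 3 genes, *Meioc*, *Ybx2* and *Cpeb1*, had the lowest fold changes, but they were not called by the unpaired quasi-likelihood test and were called in the fit paired by replicate number, by edgeR's exact test and by DESeq2. Here and below, a gene was called when its false discovery rate (FDR, Benjamini-Hochberg adjustment over all genes tested of the p from the quasi-likelihood test of edgeR) was under 0.05 and its absolute log2 fold change was over 0.5. A gene is said to have risen or fallen only when it was called. Levels are given as CPM (counts scaled to library size) on 1 scale for all 12 libraries (TMM normalization), and fold changes come from fits of the libraries compared.

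The 250 bases before the annotated start of 6 of the genes are shown because they span the range of responses: *Meioc* and *Ybx2* with the largest decreases, *Boll* and *Rbm46* with an E-box upstream of the start, and the Y-box paralogs *Ybx1* and *Ybx3*, which did not fall. Sequences are those of RefSeq (GRCm38.p6, the same chromosomes as mm10), written from 5′ to 3′ on the strand of the gene. *Meioc* lies at chr11:102665335-102665584 (plus strand), *Boll* at chr1:55363754-55364003 (minus), *Rbm46* at chr3:82876484-82876733 (minus), *Ybx2* at chr11:69935649-69935898 (plus), *Ybx1* at chr4:119294514-119294763 (minus) and *Ybx3* at chr6:131388451-131388700 (minus). For *Boll* and *Ybx2*, each with 2 annotated starts, the first is shown. Capitals mark the E2F-type motif GCGGGAA in *Meioc* and the E-box CACGTG in *Boll* and *Rbm46*, and the Y-box genes hold neither.
Meioc: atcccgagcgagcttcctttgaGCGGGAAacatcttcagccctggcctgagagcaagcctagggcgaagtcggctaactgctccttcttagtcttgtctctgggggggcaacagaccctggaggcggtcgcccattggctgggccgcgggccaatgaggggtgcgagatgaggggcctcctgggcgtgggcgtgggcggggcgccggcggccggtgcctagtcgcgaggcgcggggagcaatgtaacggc
Boll: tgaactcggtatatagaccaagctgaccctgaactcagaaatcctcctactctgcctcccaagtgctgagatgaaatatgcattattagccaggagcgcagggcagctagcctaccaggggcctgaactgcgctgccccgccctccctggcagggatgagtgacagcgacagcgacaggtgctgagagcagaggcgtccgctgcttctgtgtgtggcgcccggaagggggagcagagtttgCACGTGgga
Rbm46: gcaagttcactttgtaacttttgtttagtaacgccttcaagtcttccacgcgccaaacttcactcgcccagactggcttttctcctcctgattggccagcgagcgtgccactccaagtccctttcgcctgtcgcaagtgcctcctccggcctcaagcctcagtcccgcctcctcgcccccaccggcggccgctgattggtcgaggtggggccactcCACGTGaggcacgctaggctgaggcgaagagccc
Ybx2: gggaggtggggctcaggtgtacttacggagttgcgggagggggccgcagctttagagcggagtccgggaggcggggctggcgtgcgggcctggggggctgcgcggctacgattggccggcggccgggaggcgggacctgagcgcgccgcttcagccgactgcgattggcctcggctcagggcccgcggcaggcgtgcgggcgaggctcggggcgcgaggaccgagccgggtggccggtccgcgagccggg
Ybx1: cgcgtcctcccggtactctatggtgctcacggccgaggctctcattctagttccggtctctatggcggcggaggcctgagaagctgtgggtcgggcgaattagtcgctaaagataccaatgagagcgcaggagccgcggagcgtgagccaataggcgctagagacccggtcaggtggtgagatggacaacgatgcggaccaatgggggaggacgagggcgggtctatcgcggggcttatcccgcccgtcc
Ybx3: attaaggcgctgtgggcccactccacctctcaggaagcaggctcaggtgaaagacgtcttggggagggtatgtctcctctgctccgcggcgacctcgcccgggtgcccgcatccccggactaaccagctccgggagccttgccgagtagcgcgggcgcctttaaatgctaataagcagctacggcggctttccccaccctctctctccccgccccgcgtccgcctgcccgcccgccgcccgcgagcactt
Both motifs were searched on both strands from 250 bases before to 50 bases after each start. The E-box was held by 7.15% and the E2F-type motif by 4.6% of 32851 windows of 27025 genes. The E-box began 9 bases before the first of 2 starts of *Boll* and 34 bases before the start of *Rbm46*, and at base 25 of the transcript of *Cpeb1*. The E2F-type motif began 228 bases before the start of *Meioc* and at base 26 from the second start of *Boll*. No match was found in the windows of *Dazl*, *Ybx1*, *Ybx2*, *Ybx3* and *Elavl2*. The windows were rich in GC, from 56.0% at 1 of 6 starts of *Elavl2* to 78.0% at the first start of *Ybx2*, against a median of 52.7% over all windows, and their ratio of observed to expected CpG ran from 0.41 at a start of *Elavl2* to 1.09 at *Ybx1*, against a median of 0.38. *Ythdc2* had no entry. *Ybx2*, which fell, thus held neither motif in either of its windows, and *Rbm46*, which held an E-box, was not called.

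The identity of the sorted cells bears on each value below. Library totals ran from 32266861 to 45396233 counts, and 65.6% to 69.5% of values between 1 and 19 were even, an excess of even values that counting of both mates would give, so that independent fragments are fewer than the totals. *Thy1* had 11.7 to 17.1 CPM in the 6 Thy1+ libraries against 0.436 to 1.07 CPM in the 6 c-Kit+ libraries, and *Kit* had 171 to 432 CPM against 626 to 782 CPM. Counts over all of *Chd8* (258 to 316 CPM) cannot show the loss of 3 exons and do not check the genotype. The sum of 10 germ cell markers was 3497 to 4326 CPM in c-Kit+ control, 2519 to 2891 CPM in c-Kit+ CKO, 2091 to 3182 CPM in Thy1+ control and 1420 to 2485 CPM in Thy1+ CKO libraries. All 10 of these markers were lower in c-Kit+ CKO cells, with log2 fold changes from −1.47 to −0.06, and 3 of them fell. Most somatic markers were higher in c-Kit+ CKO cells: of 7 Sertoli markers 6 rose (sum 523 to 1326 CPM in control and 2087 to 2278 CPM in CKO libraries), of 5 Leydig markers 3 rose (584 to 1175 against 1082 to 1910 CPM), and all 6 stromal (1794 to 2241 against 3250 to 4320 CPM) and all 5 endothelial markers rose (52.3 to 74.0 against 108 to 172 CPM). Of 4 mast cell markers, which share c-Kit with the sorted cells, 3 rose (12.5 to 33.4 against 41.9 to 59.1 CPM). Of 4 peritubular myoid markers 2 rose (sum 39.0 to 59.0 against 83.1 to 101 CPM) and the other 2, *Tagln* at −0.28 and *Cnn1* at −0.09, were not called. Of 5 macrophage markers 0 were called by edgeR and 2 rose in the fit blocked by replicate number (13.2 to 38.2 against 34.4 to 48.2 CPM), and the 4 matched erythroid genes summed to 5.15 CPM or less in every library. Their part in the results below was not tested beyond the scaling by germ cell markers given further on. In bulk RNA, fewer cells of a type and less RNA per cell cannot be told apart.

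**Figure D1:**
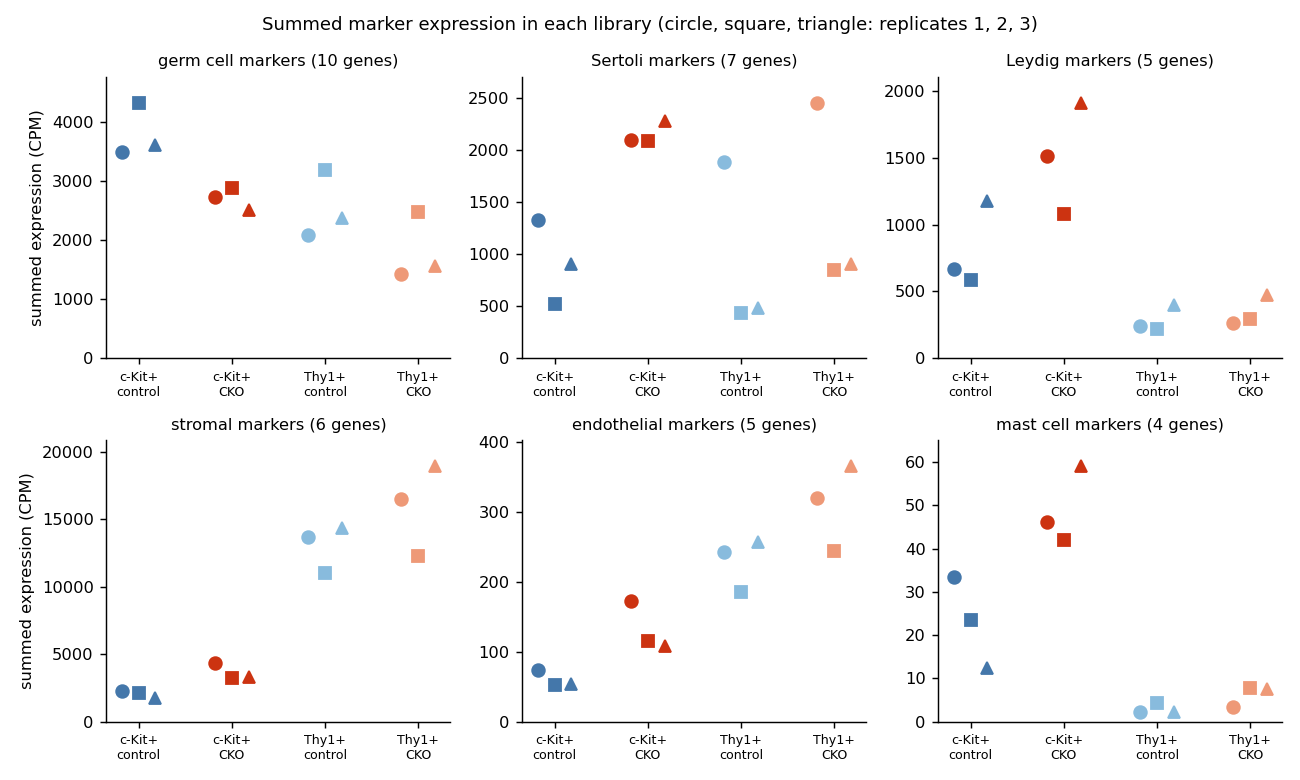
Summed expression (CPM, linear axis) of 6 marker lists in each of the 12 libraries; each point is 1 library and its shape gives the replicate number. Germ cell markers sum to 3497 to 4326 CPM in c-Kit+ control and 2519 to 2891 CPM in c-Kit+ CKO libraries, while the sums of the somatic lists are higher in most CKO libraries, and replicate 1 of both Thy1+ groups has the highest Sertoli sum of its group.

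On a scale that allows genes to be compared (RPKM, the CPM divided by the exon length in kilobases), the 10 genes spanned a wide range of levels. In c-Kit+ control cells *Dazl* was the most abundant, at 416 ± 42.6 RPKM (SD, n = 3, as for all levels given with an error), and *Ybx1* came next at 224 ± 14.3 RPKM. Both lay at or above percentile 98.7 of the genes tested in every group. *Rbm46* followed at 59.7 ± 5.80 RPKM, and *Meioc* (40.9 ± 13.7), *Ybx2* (40.2 ± 6.42), *Ybx3* (37.0 ± 5.75) and *Cpeb1* (30.1 ± 5.95 RPKM) formed a run of neighbours whose libraries overlapped. *Boll* (26.2 ± 2.61 RPKM) overlapped *Cpeb1*, and *Elavl2* (19.2 ± 2.94) and *Ythdc2* (18.1 ± 3.65 RPKM) were the least abundant and overlapped each other. In c-Kit+ CKO cells the order changed. *Meioc* went from rank 4 to the last at 5.18 ± 0.481 RPKM, with no overlap with the gene above it, and from percentile 88.1 to 44.8. *Ybx3* moved up to rank 3 at 52.5 ± 1.68 RPKM, overlapping *Rbm46* at 46.8 ± 4.96 RPKM. *Boll* moved from rank 8 to rank 5 at 16.5 ± 1.97 RPKM, with no overlap with *Ybx2* under it. In Thy1+ control cells *Dazl* (251 ± 64.8 RPKM) and *Ybx1* (211 ± 9.19 RPKM) overlapped, *Ybx3* had rank 3 at 60.6 ± 6.91 RPKM and *Rbm46* rank 4 at 34.3 ± 9.54 RPKM, and the other 6 genes formed a chain of overlapping neighbours from 18.2 ± 6.31 RPKM (*Ybx2*) down to 10.6 ± 2.67 RPKM (*Ythdc2*). In Thy1+ CKO cells *Meioc* was again last, at 3.14 ± 1.03 RPKM.

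**Figure D2:**
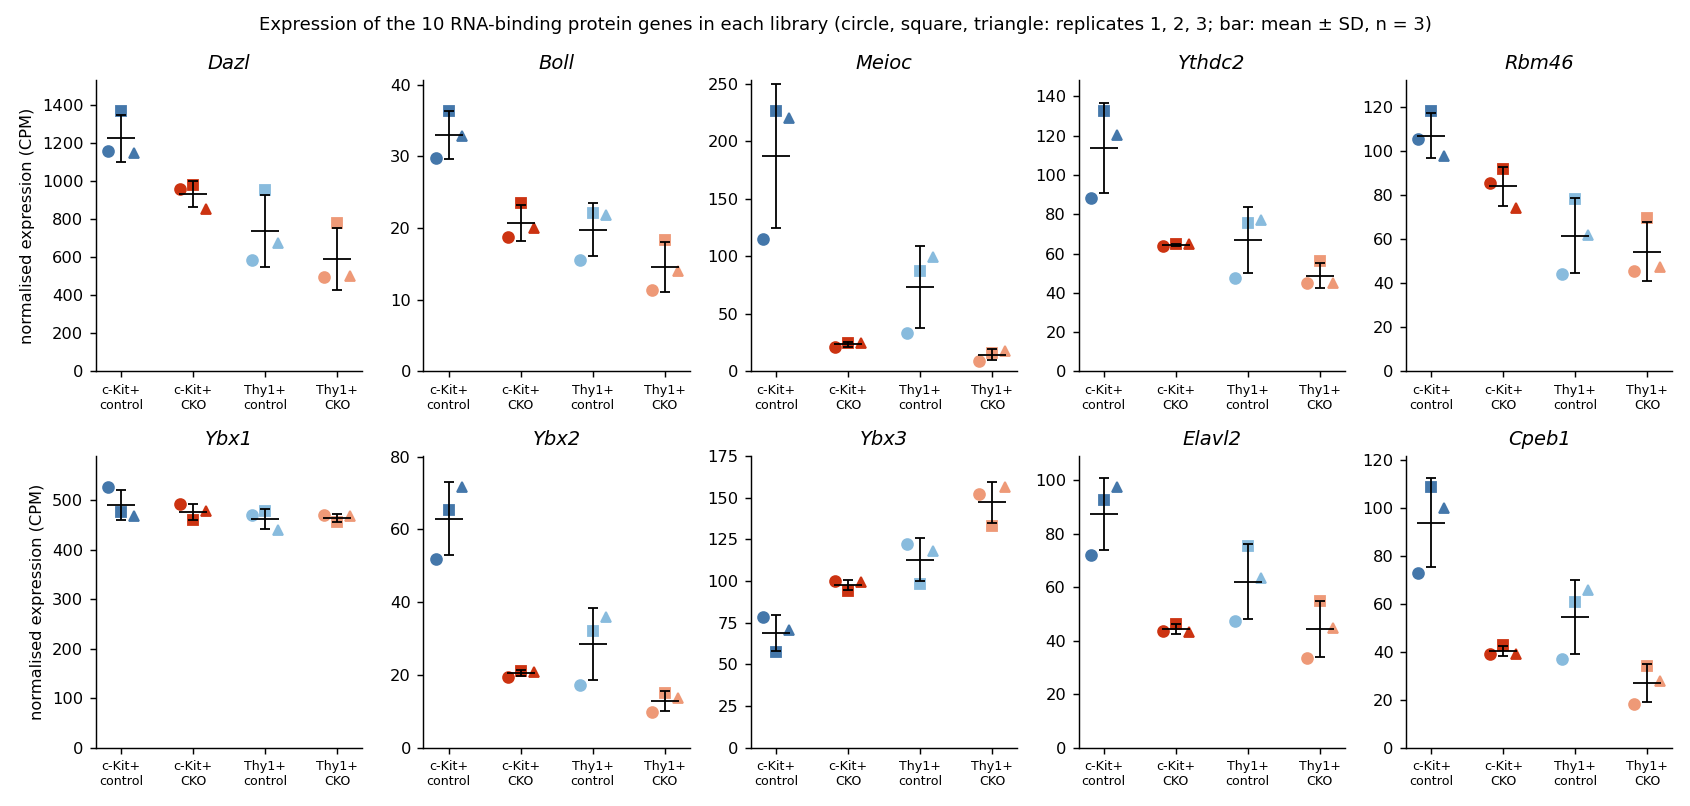
Expression (CPM after TMM normalization, linear axes from 0, 1 panel per gene) in each of the 12 libraries, with the mean and SD of the 3 libraries of a group. All 3 c-Kit+ CKO libraries lie under all 3 c-Kit+ control libraries for every gene but Ybx1, whose groups overlap, and Ybx3, whose CKO libraries are higher; Meioc drops from 115 to 226 CPM to 21.2 to 25.0 CPM.

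The 3 genes of the complex at the entry into meiosis were compared first between genotypes in c-Kit+ cells. *Meioc* (chr11:102665588-102682237), the meiosis-specific coiled-coil partner of YTHDC2, had 115, 226 and 220 CPM in control and 21.2, 25.0 and 25.0 CPM in CKO libraries of replicates 1, 2 and 3. Control replicate 1 was well below the other control libraries, yet stood far above every CKO library. The log2 fold change was −3.04 (SE 0.23, FDR = 8.67e-05, edgeR), and it stayed between −3.30 and −2.89 when any 1 library was left out. *Ythdc2* (chr18:44828665-44889720), the helicase that reads N6-methyladenosine, had 88.2, 133 and 120 CPM in control and 63.7, 64.7 and 64.7 CPM in CKO libraries. The groups did not overlap and the log2 fold change was −0.88 (SE 0.13, FDR = 0.000664, edgeR). *Rbm46* (chr3:82837233-82876483), whose protein binds both others, had 105, 118 and 97.5 CPM in control and 85.3, 91.8 and 74.2 CPM in CKO libraries. The CKO libraries were all lower, but the log2 fold change was only −0.41 (SE 0.10, FDR = 0.00718, edgeR), under the minimum of 0.5. The transcripts of the 3 partners thus differed in size of change, from an 8.22-fold decrease to 1.33-fold.

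Both DAZ family genes of the mouse were measured. *Dazl* (chr17:50279394-50293599), which promotes the translation of germ cell mRNAs, had 1157, 1369 and 1147 CPM in control and 961, 979 and 853 CPM in CKO libraries. The CKO libraries were lower without overlap, and the log2 fold change was −0.45 (SE 0.08, FDR = 0.00173, edgeR), so that *Dazl* passed the FDR and not the minimum change. *Boll* (chr1:55300069-55363469), the boule-like member needed later, in spermatids, had 29.8, 36.3 and 32.9 CPM in control and 18.7, 23.5 and 20.0 CPM in CKO libraries. It fell by 0.73 on the log2 scale (SE 0.12, FDR = 0.00101, edgeR).

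The 3 Y-box genes went in different directions. *Ybx2* (chr11:69935899-69941599), the germ cell paralog that stores mRNAs, had 51.9, 65.2 and 71.5 CPM in control and 19.5, 21.2 and 20.9 CPM in CKO libraries, which were tightly grouped and far under the controls. Its log2 fold change was −1.67 (SE 0.12, FDR = 7.65e-05, edgeR). *Ybx1* (chr4:119277327-119294513), the widely expressed paralog, had 527, 477 and 469 CPM in control and 493, 460 and 479 CPM in CKO libraries, which overlapped. Its log2 fold change was −0.10, with a 95% confidence interval of −0.24 to 0.04 (FDR = 0.226, edgeR), which leaves out a change of the minimum size. The count of *Ybx1* is uncertain where reads are shared with the pseudogene *Ybx1-ps2* (chr6:37685637-37687305). *Ybx3* (chr6:131364858-131388450), a paralog also found in somatic cells, had 78.5, 57.3 and 70.8 CPM in control and 99.8, 94.2 and 99.3 CPM in CKO libraries. All CKO libraries were higher, by 0.45 on the log2 scale (SE 0.10, FDR = 0.00674, edgeR), under the minimum change. It was called without control replicate 1, at 0.55 (FDR = 0.00144, edgeR).

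Both remaining genes encode proteins that bind the ends of mRNAs, and both fell. *Cpeb1* (chr7:81347026-81454758), which binds the cytoplasmic polyadenylation element, had 73.0, 109 and 100 CPM in control and 39.2, 42.8 and 38.9 CPM in CKO libraries. The lowest control library was well above the highest CKO library, and the log2 fold change was −1.28 (SE 0.13, FDR = 0.000207, edgeR). *Elavl2* (chr4:91250766-91399984), an ELAVL family gene of germ cells and neurons, had 72.2, 92.5 and 97.4 CPM in control and 43.7, 46.4 and 43.1 CPM in CKO libraries. It fell by 1.03 on the log2 scale (SE 0.11, FDR = 0.000212, edgeR), again without overlap.

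Of the 10 genes, 6 were thus called lower in c-Kit+ CKO cells, where 7.41% of the 17134 genes tested were called lower, and 0 were called higher, where 14.8% of all were. By the FDR alone 8 were lower, against 18.3% of all, and 1 was higher, against 20.8% of all. The CKO libraries lay under the control libraries without overlap for 8 of the 10 and for 20.6% of all genes tested. The median log2 fold change of the 10 was −0.80, and that of all genes tested was 0.01. No library decided the calls, since 6 to 7 genes were called when any 1 was left out.

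**Figure D3:**
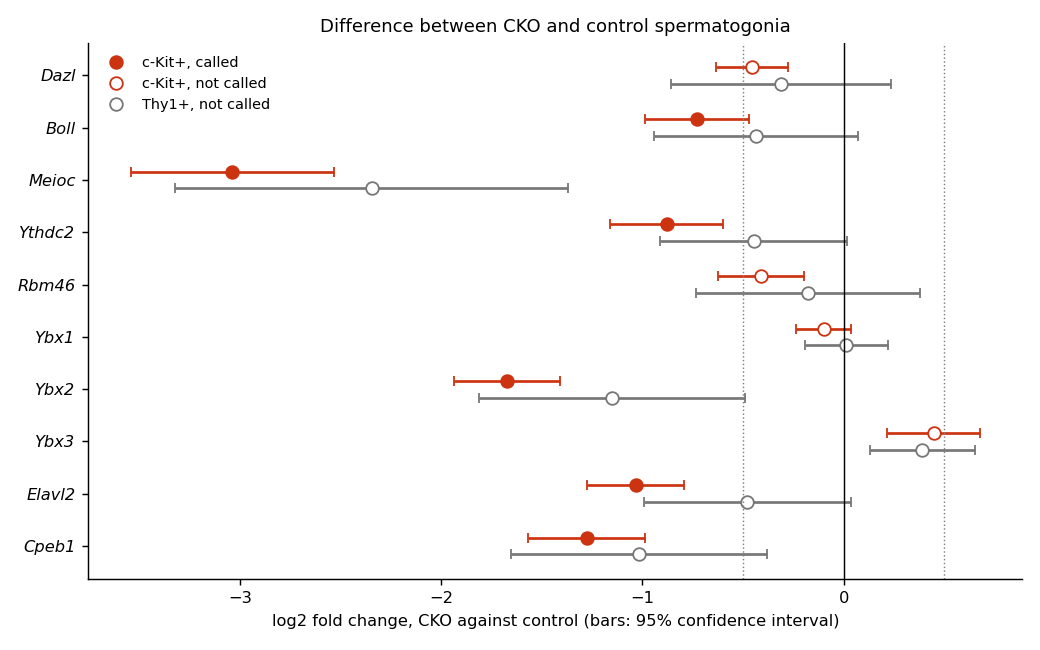
Log2 fold change of each gene, CKO against control, in c-Kit+ (red) and Thy1+ (grey) cells, with 95% confidence intervals; filled points are called by edgeR's quasi-likelihood test and dotted lines mark the minimum change of 0.5. The 6 filled c-Kit+ points run from −3.04 (Meioc) to −0.73 (Boll); the Thy1+ intervals are wider, and no Thy1+ point is called in the unpaired fit.

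In c-Kit+ CKO libraries the summed germ cell markers were lower and the summed Sertoli, stromal and endothelial markers higher, as given above. The fit was therefore repeated with the libraries scaled by the geometric mean of the 10 germ cell markers instead of by all genes, which raised the median log2 fold change of all genes by 0.50. On this scale, which reads each gene relative to germ cell transcripts, *Meioc* fell by 2.52 (SE 0.20, FDR = 1.85e-05, edgeR), *Ybx2* by 1.17 (SE 0.15, FDR = 6.17e-05), *Cpeb1* by 0.77 (SE 0.13, FDR = 0.000395) and *Elavl2* by 0.53 (SE 0.13, FDR = 0.00409). These 4 of 10 compare with 1.95% of all genes called lower on that scale. *Ythdc2*, at −0.36 (FDR = 0.0279, edgeR), and *Boll*, at −0.22 (FDR = 0.176, edgeR), were no longer called. *Dazl*, at 0.05, and *Rbm46*, at 0.09, turned to the other side of zero and lay within 1 SE of it (FDR = 0.557 and 0.471, edgeR). *Ybx1* also turned, from −0.10 to 0.40 (FDR = 0.00728, edgeR), and passed the FDR and not the minimum change. *Ybx3*, at 0.94 (FDR = 0.000365, edgeR), was called higher. Relative to the germ cell markers the 10 genes therefore split into 4 that were lower, 1 that was higher and 5 that were not called. On this scale the median log2 fold change of all genes tested was 0.51, itself over the minimum change. The value of *Ybx1* lay under that median. The share of all genes called higher on this scale was not counted, so the call of *Ybx3* has no such share beside it. The markers themselves differed in how far they were lower, and *Tex15*, *Taf7l* and *Tex14*, all germ cell genes that fell, pull this scale toward larger values.

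**Figure D4:**
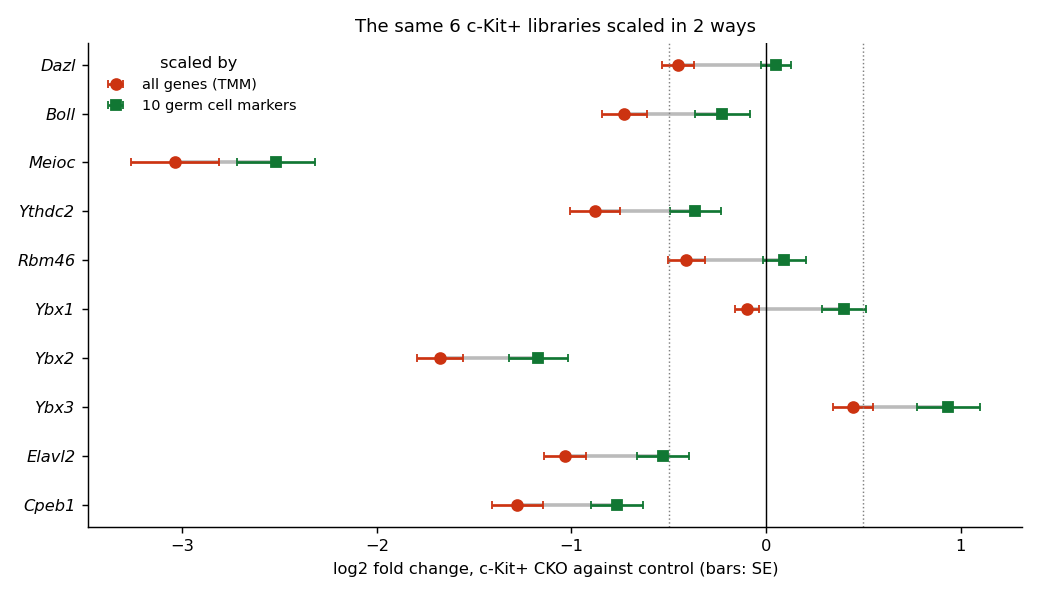
Log2 fold change of each gene, c-Kit+ CKO against control, with libraries scaled by all genes (red circles, TMM) or by 10 germ cell markers (green squares), with SE bars and dotted lines at the minimum change of 0.5. Every gene moves to the right by a similar amount; Meioc, Ybx2, Cpeb1 and Elavl2 stay under −0.5, and Dazl, Rbm46 and Ybx1 cross zero.

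In Thy1+ cells, the *Meioc* transcript was again the one with the lowest fold change. It had 33.0, 87.2 and 99.7 CPM in control and 8.99, 16.2 and 17.9 CPM in CKO libraries, which did not overlap although control replicate 1 was low. The log2 fold change was −2.35 (SE 0.43), and the test that treats the libraries as unpaired did not call it (FDR = 0.163, edgeR). *Ybx2* had 17.3, 32.0 and 36.0 CPM in control and 9.72, 14.9 and 13.6 CPM in CKO libraries, a log2 difference of −1.15 (SE 0.29, FDR = 0.247, edgeR). *Cpeb1* had 37.1, 60.8 and 65.9 CPM in control and 18.4, 34.2 and 27.8 CPM in CKO libraries, a log2 difference of −1.02 (SE 0.28, FDR = 0.281, edgeR). In all 3 genes replicate 1 was the lowest library of its genotype. *Ybx3* was higher without overlap, with 122, 98.2 and 118 CPM in control and 152, 133 and 156 CPM in CKO libraries, by 0.39 (SE 0.11, FDR = 0.298, edgeR). The other 6 genes overlapped between genotypes, with log2 fold changes from −0.48 (*Elavl2*) to 0.01 (*Ybx1*).

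None of the 10 genes was called in Thy1+ cells by the unpaired edgeR quasi-likelihood test, which called 0.0% of 17416 genes lower and 0.0% higher. At an unadjusted p under 0.05 it held 4 of the 10 and 12.4% of all genes. The exact test of edgeR and DESeq2 each called 3 of the 10 lower, *Meioc*, *Ybx2* and *Cpeb1*, where 1.67% and 1.87% of all genes were called lower. The CKO libraries were lower without overlap for 3 of the 10 and for 10.7% of all genes. Thy1+ libraries of the same replicate number deviated together from their group means, with correlations of 0.267 to 0.492 over genes, which meets the limit of 0.1 set for pairing, although the labels do not state a pairing. In the fit blocked by replicate number, *Meioc* fell by 2.27 (FDR = 3.85e-09, edgeR), *Ybx2* by 1.11 (FDR = 5.01e-06, edgeR) and *Cpeb1* by 1.02 (FDR = 1.18e-06, edgeR), and these 3 of 10 compare with 4.92% of all genes called lower. In the same fit *Elavl2* (−0.48), *Boll* (−0.44), *Ythdc2* (−0.42) and *Dazl* (−0.31) passed the FDR and not the minimum change, as did *Ybx3* at 0.39, while *Rbm46* (FDR = 0.129) and *Ybx1* (FDR = 0.857, edgeR) did not pass it. The share of all genes passing the FDR in it is not given here. Scaled by germ cell markers without the block, none of the 10 was called. *Meioc* was then at −1.82 (FDR = 0.279, edgeR), *Ybx2* at −0.64 and *Cpeb1* at −0.54. *Elavl2* (0.02), *Boll* (0.05), *Ythdc2* (0.07) and *Dazl* (0.19) lay above zero on that scale, where the median of all genes was 0.54. Replicate 1 had the highest Sertoli sum of its genotype, 1882 against 434 and 488 CPM in control and 2456 against 848 and 906 CPM in CKO libraries. Without both of these libraries the unpaired test called *Meioc*, at −2.45 (FDR = 0.00288, edgeR), and no other of the 10. Leaving out control replicate 1 alone also left 1 called, *Meioc* (FDR = 0.0244, edgeR).

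Whether the genotype effect differed between populations was tested directly in 1 fit of all 12 libraries. It was called for 0 of the 10 genes and for 0.0% of 18002 genes, and 0 of the 10 had an unadjusted p under 0.05 by edgeR. DESeq2 called 0 as well. The largest difference by p was that of *Elavl2*, whose effect in c-Kit+ cells differed from that in Thy1+ cells by −0.49 on the log2 scale (95% confidence interval of the difference −1.07 to 0.08, FDR = 0.562, edgeR). For *Meioc* the difference was −0.63, with an interval of −1.76 to 0.50, so that neither an equal nor a clearly larger effect in c-Kit+ cells could be told at this spread.

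Between the populations of control mice, 7 of the 10 genes were lower in Thy1+ than in c-Kit+ cells and 1 was higher, where 7.08% and 20.7% of 17350 genes were called lower and higher. *Meioc* had 33.0 to 99.7 CPM in Thy1+ and 115 to 226 CPM in c-Kit+ control libraries, which differ by −1.33 on the log2 scale (SE 0.39, FDR = 0.0270, edgeR). *Ybx2* had 17.3 to 36.0 CPM against 51.9 to 71.5 CPM, which differ by −1.12 on the log2 scale (SE 0.25, FDR = 0.00894, edgeR). *Rbm46* (−0.78), *Cpeb1* (−0.76), *Ythdc2* (−0.75), *Boll* (−0.72) and *Dazl* (−0.71) were lower by similar amounts. For all 7 the Thy1+ libraries lay under the c-Kit+ libraries without overlap. *Ybx3* was higher in Thy1+ cells, at 98.2 to 122 CPM against 57.3 to 78.5 CPM, by 0.74 (SE 0.14, FDR = 0.00422, edgeR). *Elavl2*, at −0.47 (FDR = 0.0600, edgeR), overlapped and was not called, nor was *Ybx1* at −0.06. These calls leaned on the c-Kit+ control libraries: 3 genes were called without replicate 2 and 5 without replicate 3. Thy1+ control libraries also held less of the germ cell markers and more of the stromal markers (10996 to 14323 against 1794 to 2241 CPM). Relative to the germ cell markers 1 gene, *Meioc*, at −0.84 (FDR = 0.0465, edgeR), was still called lower. *Ybx3*, at 1.27 (FDR = 0.00155, edgeR), was called higher. The median log2 fold change of all genes on that scale was 0.55, and the shares of all genes called on it are not given here.

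In CKO mice, 3 of the 10 genes were called lower in Thy1+ than in c-Kit+ cells and 1 higher, where 5.03% and 15.3% of 17346 genes were. *Ybx2* (−0.64), *Dazl* (−0.61) and *Rbm46* (−0.59) were lower and *Ybx3* (0.63) was higher. Thy1+ CKO libraries also held more of the stromal markers than c-Kit+ CKO libraries (12304 to 18949 against 3250 to 4320 CPM). Relative to the germ cell markers *Ybx2* (−0.11), *Dazl* (−0.09) and *Rbm46* (−0.06) were no longer called. *Ybx3*, at 1.24 (FDR = 0.00682, edgeR), was still called higher on that scale, where the median of all genes was 0.55. *Meioc* had 8.99 to 17.9 CPM in Thy1+ and 21.2 to 25.0 CPM in c-Kit+ cells, which differ by −0.68 on the log2 scale (SE 0.23, FDR = 0.0585, edgeR). In the fit blocked by replicate number *Meioc* (−0.73, FDR = 0.0116, edgeR) and *Cpeb1* (−0.585, FDR = 0.0219, edgeR) were called lower as well. Same-number correlations between the CKO populations, 0.021 to 0.203, did not meet the limit for pairing, and the share of all genes called in the blocked fit is not given here. *Elavl2*, at 0.04, was at the same mean of 44.4 CPM in both. The number called here depended on single libraries: it was 7 without Thy1+ CKO replicate 2, and 1, *Ybx3*, without any 1 of the other 5. Both comparisons of populations use the libraries of the genotype comparisons, and the change of the population difference with genotype is the contrast tested above.

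**Figure D5:**
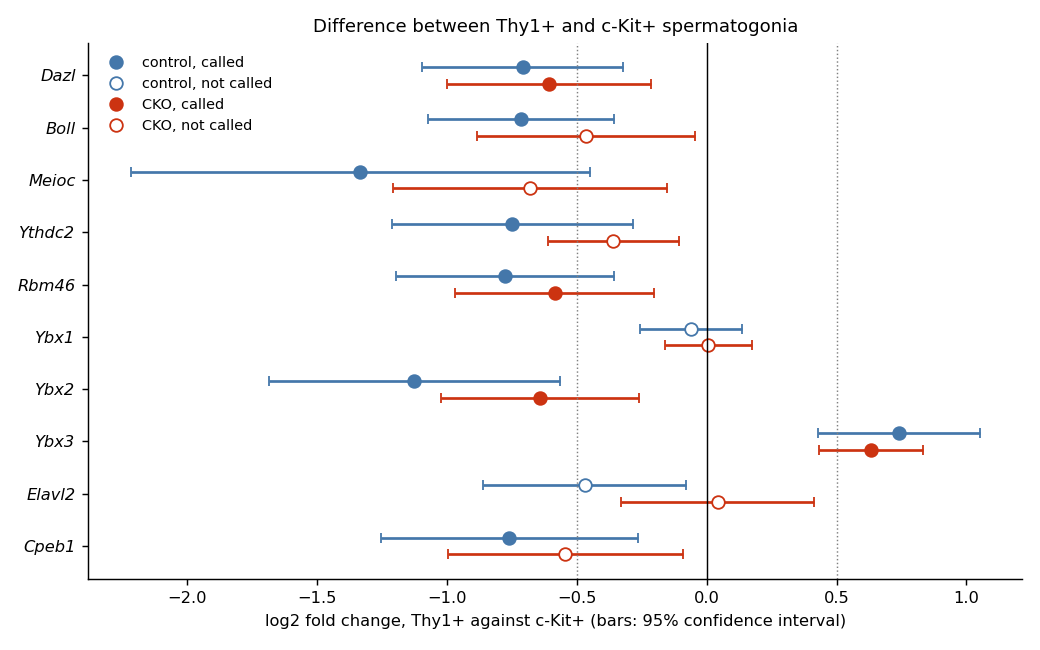
Log2 fold change of each gene, Thy1+ against c-Kit+ cells, in control (blue) and CKO (red) mice, with 95% confidence intervals; filled points are called and dotted lines mark the minimum change of 0.5. In controls 7 filled points lie between −1.33 (Meioc) and −0.71 (Dazl) and Ybx3 lies at 0.74; in CKO mice 4 points are filled, from −0.64 (Ybx2) to 0.63 (Ybx3).

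Pearson correlations of log2 CPM over the 12 libraries describe libraries that differ in population, genotype and marker content, and the lower levels in CKO and in Thy1+ cells given above are part of them. The 45 pairs of the 10 genes had correlations of −0.942 to 0.985, highest for *Ybx2* and *Cpeb1*, and *Meioc* and *Ybx2* reached 0.977. *Dazl* ran closest to *Rbm46* (0.982) and less close to *Meioc* (0.706). *Ybx3* was negatively correlated with each of the others, from −0.942 with *Dazl* and *Boll* to −0.387 with *Ybx1*, and *Ybx1* correlated weakly with the rest (0.118 to 0.412). Among 17413 genes, the single gene most like *Meioc* was *Dpep3* (0.991), a dipeptidase of the testis, and the one most like *Ybx2* was *Tinf2* (0.995), a telomere shelterin gene. *Dazl* ran closest to *Hells* (0.996), the gene of a chromatin remodeler, *Boll* to *Polq* (0.991), of a DNA polymerase, and *Rbm46* to the helicase gene *Ddx24* (0.994). *Ythdc2* was closest to the centriole gene *Ccp110* (0.989), *Elavl2* to *Celf6* (0.975), *Cpeb1* to *Fam90a1b* (0.994), *Ybx3* to *Ier3* (0.989) and *Ybx1* to *Ubl7* (0.848). Many genes were nearly as close: 1455 had a correlation over 0.9 with *Dazl*, 487 with *Meioc* and 0 with *Ybx1*.

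Genes of related function were read from the same fits. Of 14 writers, erasers and readers of N6-methyladenosine, the mark bound by YTHDC2, 0 were called in c-Kit+ cells by edgeR, by DESeq2 or in the blocked fit. By edgeR 7 of the 14 had an unadjusted p under 0.05, as did 8191 of all 17134 genes tested. The median log2 fold change of the 14 was −0.12, and 12 of 14 were lower, where 49.0% of all genes were. By the FDR alone 5 of the 14 were lower, from *Mettl14* at −0.39 (FDR = 0.00214, edgeR) to *Ythdf1* at −0.26, with *Zc3h13*, *Mettl3* and *Alkbh5* between, and 1 was higher, *Rbm15b* at 0.23 (FDR = 0.0481, edgeR). By the FDR alone 18.3% of all genes were lower and 20.8% higher. Of 7 paralogs of the ELAVL, CPEB and YTHDC genes, 3 fell, where 7.41% of all genes were called lower, and none rose: *Elavl3* by 1.70 (FDR = 0.000579, edgeR), *Elavl4* by 0.85 (FDR = 0.0128, edgeR) and *Cpeb2* by 0.62 (FDR = 0.00801, edgeR). The widely expressed *Elavl1* was level at 0.01, and *Elavl3* and *Elavl4* are otherwise known from neurons. Levels of *Elavl4* were low, at 3.83 ± 0.684 CPM in c-Kit+ control and 2.22 ± 0.298 CPM in c-Kit+ CKO libraries. Of 15 tested genes of translational repression and mRNA decay 1 rose, *Zfp36l1* by 0.70 (FDR = 0.00803, edgeR), a decay factor found in many cell types, and none fell. Of 20 other RNA-binding proteins studied in these cells 3 fell and 1 rose, and the largest were *Mex3b* at 1.03 (FDR = 0.00176, edgeR), *Igf2bp1* at −0.66 (FDR = 0.000314, edgeR) and *Fmr1* at −0.65 (FDR = 0.000969, edgeR). For both of these lists the shares of all genes tested were 7.41% called lower and 14.8% called higher.

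Transcripts reported as targets of these proteins were read as well. *Sycp1* and *Sycp3*, genes of the synaptonemal complex whose mRNAs are bound by CPEB1 and DAZL, fell in c-Kit+ CKO cells by 1.36 each (SE 0.14 and 0.13, FDR = 0.000209 and 0.000188, edgeR). *Sycp3* had 133, 205 and 151 CPM in control and 64.1, 69.1 and 64.8 CPM in CKO libraries. *Ddx4*, an RNA helicase of germ cells and a target of DAZL, was at −0.22 (FDR = 0.0663, edgeR) and was not called, and *Ccna2*, a cyclin whose mRNA is lowered by the MEIOC and YTHDC2 complex, was level at −0.10 (FDR = 0.227, edgeR). The protamine genes *Prm1* and *Prm2*, targets of YBX2 in spermatids, had at most 28 counts in a library and were not read. *Stra8*, the transcription regulator that starts meiosis, had 522, 622 and 526 CPM in control and 355, 401 and 339 CPM in c-Kit+ CKO libraries and fell by 0.67 (SE 0.09, FDR = 0.00041, edgeR). Relative to the germ cell markers *Stra8* was no longer called, while *Sycp1* and *Sycp3* were. *Meiosin* was not analysed here. In Thy1+ cells the unpaired edgeR test called 0 of these genes. The log2 fold changes were −0.91 for *Sycp3*, −0.83 for *Sycp1* and −0.53 for *Stra8*, and the blocked fit called these 3 lower. Of the target transcripts 2 had an unadjusted p under 0.05 in the unpaired test, where 12.4% of all genes did, and *Stra8* did not.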

How the data were processed

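The deposited table holds unnormalized counts. Per the labels and methods, the authors used Trimmomatic 0.39 for trimming, HISAT2 2.1.0 for alignment to mm10 and featureCounts for counting on RefSeq exons. The command in the deposited header sets no strand and no fragment counting, so reads of overlapping genes can be exchanged (no exon of the 10 genes overlaps another gene) and both reads of a fragment count. Of 27179 gene IDs, 25275 were given a symbol. The RPKM values divide TMM-normalized CPM by the deposited exon length.

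Counts were tested with edgeR 4.0.16 (TMM, filterByExpr, quasi-likelihood test, Benjamini-Hochberg) in R 4.3.3, called where the FDR was under 0.05 and the log2 fold change over 0.5 in size (interaction: FDR alone). The 10 genes and all lists were chosen with earlier results of these data known. Of each related list the called genes of the c-Kit+ comparison were named, up to the 3 with the largest change; *Meiosin* and *Hbb-bt* were unmatched. The N6-methyladenosine genes, *Elavl1*, *Tagln*, *Cnn1* and the 3 germ cell markers were named after their values were seen. Alternatives were the edgeR exact test, DESeq2 1.42.0, DESeq2 size factors, library size only, scaling by germ cell markers, other filters, a fit of 12 libraries, no minimum change, the replicate block and each library left out. Added after seeing the data were germ cell scaling with the block, and Thy1+ replicate 1 left out of both genotypes. The steps were tested on simulated data.

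The labels do not say that replicate numbers pair libraries. Same-number correlations of deviations from the group means were 0.101 to 0.124 in c-Kit+, 0.267 to 0.492 in Thy1+ and 0.134 to 0.298 between controls, all over 0.1, which met the limit for pairing. Values are those of the unpaired fits, and for the 10 genes blocked values are printed where the block changed a call. Correlations were 0.021 to 0.203 between CKO populations, and 10 of 18 passed in the interaction, which did not meet it.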

Additional observations from a re-analysis of the deposited data

How the results depend on the processing

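In c-Kit+ cells 6 of the 10 genes were called, 5 to 9 under the alternatives and 6 to 7 with any 1 library left out. Germ cell scaling kept 4 of the 6, lost *Ythdc2* and *Boll* and added *Ybx3* as higher. In Thy1+ cells 3 were called by edgeR's exact test, DESeq2 and the replicate block, and 2 in the fit of 12 libraries. Germ cell scaling alone called none, and 5 were called with germ cell scaling and the block, which was added after seeing the data. Without replicate 1 of both genotypes 1 was called, and 0 to 1 with 1 library left out. Of the 5 with germ cell scaling and the block, *Meioc*, *Ybx2* and *Cpeb1* were lower, and *Ybx1* and *Ybx3* were higher. The median log2 fold change of all genes in that fit was 0.52, itself over the minimum change. The shares of all genes called in it are not given here. With germ cell scaling and no block, Thy1+ *Ybx1* was at 0.54, and the median of all genes was 0.54 too. For control populations 2 were called with germ cell scaling, 3 with the block added, and 3 to 9 with 1 library left out. For CKO populations 1 was called with germ cell scaling, with or without the block, 6 with the block, and 1 to 7 with 1 library left out. Among the 10 genes the block changed no other call. In c-Kit+ cells it moved the calls of Sertoli markers from 6 to 7, Leydig from 3 to 5, mast cell from 3 to 4, macrophage from 0 to 2 and other RNA-binding proteins from 4 to 5. In Thy1+ cells it moved from 0 to 6 Sertoli, 4 germ cell and 1 each of the stromal, macrophage, mast cell and erythroid markers, and from 0 to 1 paralog, 2 decay factors, 1 other RNA-binding protein, 2 target transcripts and *Stra8*. Between control populations it moved other RNA-binding proteins from 4 to 5, Sertoli markers from 0 to 1, and Leydig and macrophage markers from 4 to 5 each. The interaction stayed at 0. Germ cell scaling reversed c-Kit+ *Dazl* (0.05), *Rbm46* (0.093) and *Ybx1* (0.40, with the block 0.41), Thy1+ *Dazl* (0.19), *Boll* (0.046, with the block 0.054), *Ythdc2* (0.07 and 0.076), *Rbm46* (0.33) and *Elavl2* (0.021 and 0.016), control *Ybx1* (0.46 and 0.45) and *Elavl2* (0.018 and 0.025), and CKO *Boll* (0.06) and *Ythdc2* (0.19 and 0.18). Library size alone reversed *Ybx1* in Thy1+ (−0.021) and CKO cells (−0.079) and CKO *Elavl2* (−0.038), and the fit of 12 libraries CKO *Ybx1* (−0.036). With 1 library left out, Thy1+ *Rbm46* ran from −0.42 to 0.048, Thy1+ *Ybx1* from −0.026 to 0.047, CKO *Ybx1* from −0.024 to 0.031, CKO *Elavl2* from −0.13 to 0.23, and the interaction of *Dazl* from −0.39 to 0.17, of *Rbm46* from −0.47 to 0.052, of *Ybx1* from −0.16 to 0.005 and of *Cpeb1* from −0.40 to 0.023. In c-Kit+ cells, germ cell scaling moved the called genes from 0 to 2 for the N6-methyladenosine list, from 1 to 4 for mRNA decay, from 4 to 10 for other RNA-binding proteins and from 1 to 0 for *Stra8*, which the fit of 12 libraries also lost. The cause of these changes was not tested. The median log2 fold change of all genes in that germ cell scaled fit was 0.51, itself over the minimum change. The list counts give no direction and have no share called higher beside them, so they are not read as further responses. Counting both reads of a fragment limits what depth says of precision.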
